A study of Mus musculus with 12 samples.

Results

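Colon epithelium of mice given azoxymethane (AOM), dextran sulfate sodium (DSS) and curcumin was compared with that of untreated control mice, in 4 libraries against 4 of the 12 in the study. The members are the 8 libraries whose titles carry these group names, and every gene with a value of 1 or more in at least 4 of the 8 was tested, which left 11691 of 24391 genes. The mice were C57BL/6 at 18 weeks of age in both groups, and no transgene or engineered allele is named. The treated group, called curcumin below, received AOM, DSS and curcumin, and the control group none of these, so that the part of each agent in a difference cannot be told apart from this contrast alone. Another group of 4 libraries, from mice given AOM and DSS without curcumin, is set beside the result where a gene's level there helps to place it. Neither the dose and route of curcumin nor the source of each library in a separate animal is given in the sources used here, so p-values measure the spread between these samples.

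AOM is a carcinogen that alkylates DNA, DSS is a polymer that injures the colon lining and inflames it, and curcumin is the yellow polyphenol of turmeric. The colon epithelium meets reactive compounds of the diet with an enzyme system in stages. Reductases, dehydrogenases, esterases and cytochromes P450 alter the compound, transferases then couple it to glutathione, glucuronate or sulfate, and transporters carry the product away. Many of these genes are textbook targets of Nrf2, a transcription factor that electrophiles and oxidants release from its inhibitor Keap1.

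The deposited values are FPKM, which are scaled by gene length and library depth, so levels can be set beside each other between genes. The depth factor of each library matched the median ratio of its reads per gene to the average over libraries, not its total reads. FPKM sums ranged from 441863 in control 0 to 565893 in curcumin 0. Replicates are numbered 0 to 3 as in the titles. Reads assigned to genes ranged from 5567988 in control 1 to 15968416 in curcumin 3. The libraries differed in how they weighted genes by base composition: control 0 and curcumin 0 and 1 (and AOM/DSS 0 and 1) gave relatively higher values to GC-rich genes, and control 1, 2 and 3 and curcumin 2 and 3 to AT-rich genes. Markers of colon epithelium were abundant in every library. Epcam, an adhesion protein of epithelia, was at 746 ± 58.1 FPKM in control and 715 ± 143 in curcumin (SD, n = 4 each), and the keratin Krt8 ranged from 1801 to 3689 FPKM over the 8 libraries.

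Few genes separated curcumin from control. Of the 11691 genes, 17 passed the test, or 0.145% (limma on log2(FPKM + 1), Benjamini-Hochberg adjusted p below 0.05), 11 of them higher with curcumin (0.0941%) and 6 lower (0.0513%). At an unadjusted p below 0.05 there were 1444 genes (12.4%), 690 higher and 754 lower, and the median difference over all genes was 0.01 on the log2 scale. In 976 genes (8.35%) all 4 curcumin libraries lay on one side of all 4 control libraries, 439 higher (3.76%) and 537 lower (4.59%). In the same fit and genes, AOM/DSS minus control gave 173 calls (1.48%) and curcumin minus AOM/DSS 129 (1.1%), and each pair of these contrasts shares a group of libraries. At an unadjusted p below 0.05 the counts lay closer, with 1561 genes in AOM/DSS minus control beside the 1444 in curcumin minus control (limma). The counts of calls therefore do not measure how far each group lay from control. Of the called genes 64.7% were higher, against 53.3% of 15 after scaling each library to a common sum, 14 of 28 after quantile normalization and 47.8% of 23 with limma voom on recovered reads. The count depended on single libraries: it was 4 without control 0, 11 without control 1, 5 without control 3, and 4, 6, 5 and 9 without curcumin 0, 1, 2 and 3. The AOM/DSS libraries, which add to the estimate of spread, moved it as well, to 35 without AOM/DSS 1 and to 7 without AOM/DSS 2.

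**Figure D1:**
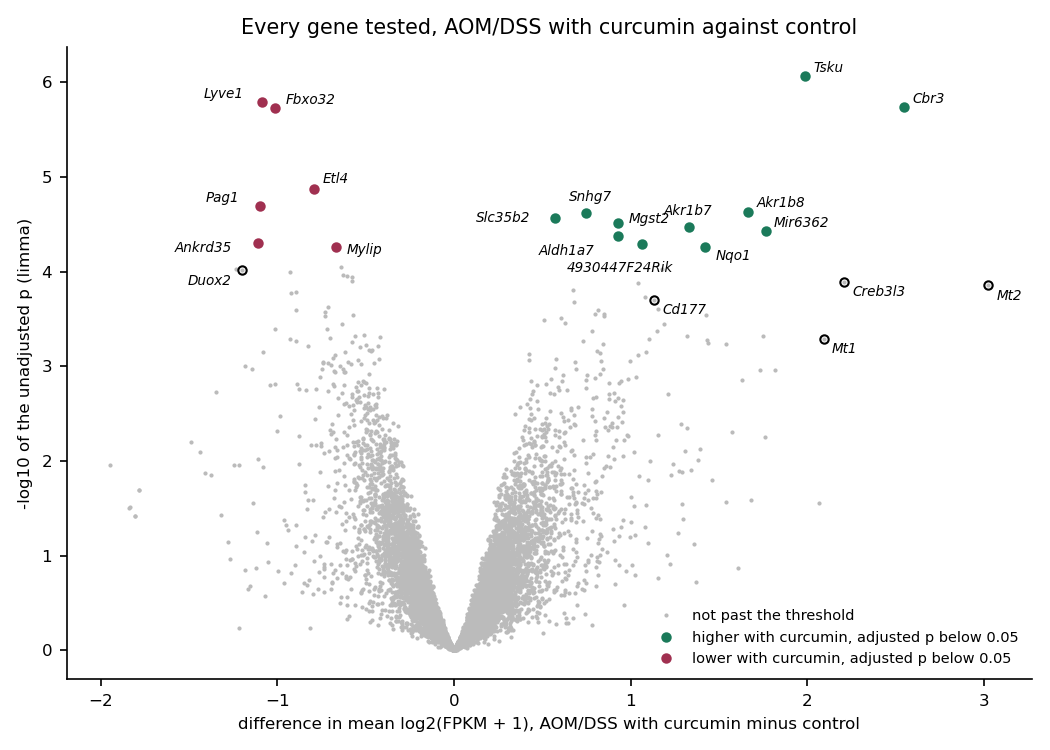
Each point is 1 of the 11691 genes, with the difference in mean log2(FPKM + 1), curcumin minus control, on the horizontal axis and -log10 of the unadjusted limma p on the vertical axis. Green points are the 11 genes that rose, red points the 6 that fell, and black circles mark 5 genes of large difference that did not pass.

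Of the 11 genes that rose, 4 encode enzymes that reduce carbonyls or quinones. Cbr3, a carbonyl reductase, was at 14.5, 9.79, 12.9 and 11.7 FPKM in control replicates 0 to 3 and at 91.1, 126, 72.9 and 39.1 in curcumin. The lowest curcumin library was thus above the highest control library, and the mean rose 6.73-fold, from 12.2 ± 1.98 to 82.3 ± 36.3 FPKM (SD, n = 4 each). On the log2(FPKM + 1) scale the difference was 2.55 (SE 0.31, adjusted p = 0.00546, limma). AOM/DSS libraries, at 16.4 ± 5.82 FPKM (SD, n = 4), differed from control by 0.35 (adjusted p = 0.681, limma) and from curcumin by 2.202 (adjusted p = 0.00569, limma).

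The aldo-keto reductase Akr1b8, which reduces aldehydes, stood at 43.9, 56.8, 101 and 38.6 FPKM in control and 179, 200, 205 and 141 in curcumin. All curcumin libraries exceeded control 2, which was the highest of its group, and the mean rose 3.02-fold (log2 difference 1.67, SE 0.26, adjusted p = 0.0352, limma). Its paralog Akr1b7 was at 1.87, 3.47, 3.91 and 3.93 FPKM in control and 12.9, 10.5, 7.60 and 8.06 in curcumin, with no overlap (1.33, SE 0.22, adjusted p = 0.0361). Akr1b7 shares 27.2% of its exon bases with Gm13857 on the opposite strand. Reads of paralogs can also be split between them, which was not measured, so each of these levels is uncertain. Nqo1, the quinone reductase that is the usual readout of Nrf2, was at 13.9, 24.2, 15.8 and 13.7 FPKM in control and 49.5, 48.5, 59.9 and 30.4 in curcumin. It rose 2.78-fold (1.42, SE 0.24, adjusted p = 0.0382), curcumin 3 being the lowest of its group and still above control 1. In AOM/DSS, Nqo1 was at 22.4 ± 5.68 FPKM (SD, n = 4), and curcumin minus AOM/DSS did not pass (1.03, adjusted p = 0.0624, limma).

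A dehydrogenase, a glutathione transferase and a sulfate carrier also rose. Aldh1a7, an aldehyde dehydrogenase, was at 9.53, 12.2, 9.44 and 11.5 FPKM in control and between 20.7 and 22.0 in all 4 curcumin libraries. These narrow groups lay 1.98-fold apart (log2 difference 0.93, SE 0.15, adjusted p = 0.0379, limma), while AOM/DSS was at 6.79 ± 1.69 FPKM (SD, n = 4). Mgst2, a microsomal glutathione transferase, was at 138, 196, 187 and 160 FPKM in control and 398, 307, 327 and 268 in curcumin (0.93, SE 0.15, adjusted p = 0.0361), and AOM/DSS, at 175 ± 15.3, lay within the control range. Slc35b2, the Golgi carrier of the activated sulfate that sulfotransferases use, was at 24.04, 22.7, 26.0 and 22.5 FPKM in control and 37.8, 36.5, 34.6 and 34.5 in curcumin. This was the smallest difference of the 17 (0.57, SE 0.09, adjusted p = 0.0355), with AOM/DSS between the groups at 31.3 ± 1.02 FPKM (SD, n = 4).

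Another 4 genes rose. Tsku encodes tsukushi, a small secreted leucine-rich repeat protein. Its level was 8.68, 6.96, 5.02 and 10.3 FPKM in control, 7.97, 5.10, 9.40 and 8.01 in AOM/DSS, and 35.3, 41.0, 34.99 and 22.6 in curcumin. Control and AOM/DSS libraries overlapped and every curcumin library was above both (curcumin minus control 1.99, SE 0.23, adjusted p = 0.00546, limma; curcumin minus AOM/DSS 2.00, adjusted p = 0.00159). Snhg7, a noncoding host transcript of small nucleolar RNAs, was at 5.31 to 6.81 FPKM in control and 9.65 to 12.6 in curcumin (0.75, SE 0.12, adjusted p = 0.0352). The uncharacterised gene 4930447F24Rik was low throughout, at 0.342 to 0.696 FPKM in control, 0.617 to 1.73 in AOM/DSS and 1.66 to 2.54 in curcumin (1.06, SE 0.18, adjusted p = 0.0382). Mir6362, a microRNA hairpin gene, was listed at 0 in all control libraries and passed on 1, 2, 1 and 3 reads in curcumin 0 to 3, against 1 read in AOM/DSS. No fold is given for Mir6362 at this depth. Mir6362 and 4930447F24Rik passed the filter on low values through the curcumin group alone, so their lack of overlap follows from the filter. Of all genes tested, 19 passed it through 1 group only.

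The 6 genes that fell were lower than control in AOM/DSS as well, in the mean. Fbxo32 (atrogin-1), the substrate-binding part of a ubiquitin ligase best known from wasting muscle, was at 39.6, 39.8, 32.5 and 40.3 FPKM in control, 22.5, 21.4, 26.4 and 19.3 in AOM/DSS, and 19.7, 15.7, 17.9 and 20.2 in curcumin. Control libraries lay above all 8 others, and the mean was 2.07-fold higher in control than in curcumin (log2 difference -1.01, SE 0.12, adjusted p = 0.00546, limma). AOM/DSS minus control was -0.74 (adjusted p = 0.012) and curcumin minus AOM/DSS -0.27 (adjusted p = 0.344).

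Lyve1, a hyaluronan receptor that marks lymphatic endothelium and some tissue macrophages, was at 4.44, 4.91, 4.62 and 4.66 FPKM in control, 1.60, 2.43, 2.58 and 2.03 in AOM/DSS, and 2.05, 1.45, 1.76 and 1.43 in curcumin. It fell by 1.09 (SE 0.13, adjusted p = 0.00546, limma) against control, and AOM/DSS minus control was -0.85 (adjusted p = 0.00773). In bulk samples fewer cells of a type and less RNA per cell cannot be told apart. Of the 12 endothelial markers listed only Pecam1 passed the filter, at 3.70 ± 0.812 FPKM in control and 3.96 ± 0.565 in curcumin (SD, n = 4 each), and the summed level of the list was 5.53 to 16.1 FPKM in control and 5.68 to 6.96 in curcumin. The 15 macrophage and dendritic markers summed to 41.1 to 105 FPKM in control and 35.04 to 71.2 in curcumin, with 7 of 7 tested members lower in the mean and 0 past the threshold. The part of these cells in the Lyve1 difference was not tested.

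Of the other falls, Pag1, a membrane adaptor that recruits the kinase Csk, was at 11.8, 7.97, 9.85 and 13.4 FPKM in control and 4.63, 3.96, 4.06 and 5.08 in curcumin (-1.10, SE 0.17, adjusted p = 0.0352, limma). AOM/DSS, at 5.46 ± 1.24 FPKM (SD, n = 4), differed from control by -0.86 (adjusted p = 0.0283, limma). Ankrd35, an ankyrin repeat protein, went from 3.02 ± 1.02 to 0.824 ± 0.182 FPKM (SD, n = 4 each; -1.11, adjusted p = 0.0382, limma). Etl4 was at 32.97 to 42.0 FPKM in control and 18.98 to 23.1 in curcumin (-0.79, SE 0.12, adjusted p = 0.0317). Mylip, the ubiquitin ligase that degrades the LDL receptor, was at 11.7 to 15.4 in control and 7.73 to 8.06 in curcumin (-0.67, SE 0.11, adjusted p = 0.0382). In Ankrd35, Etl4 and Mylip the AOM/DSS mean lay between those of the other 2 groups, at 1.25, 26.1 and 9.30 FPKM.

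**Figure D2:**
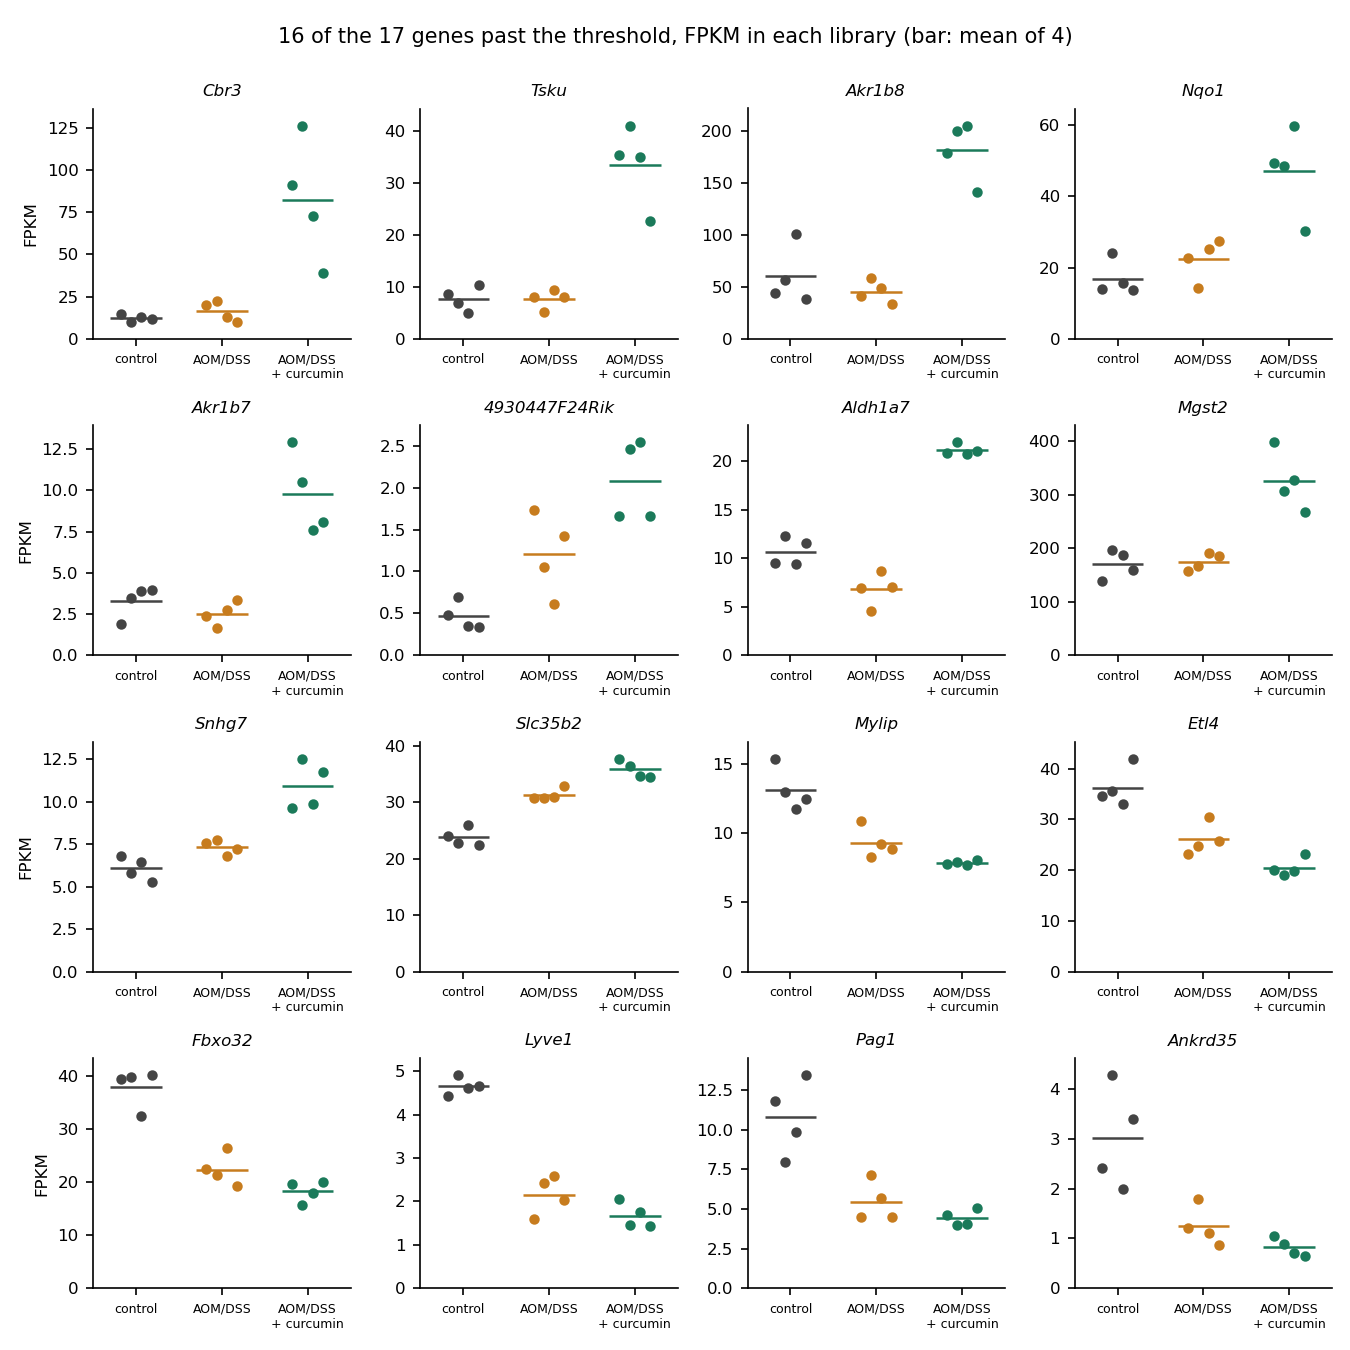
FPKM (vertical axes, each from 0) of 16 called genes in the 12 libraries, by group, with a bar at each group mean. Mir6362, which rests on single reads, is left out. Curcumin and control libraries do not overlap in any panel, which for 4930447F24Rik follows from the filter. AOM/DSS libraries overlap control for Cbr3, Tsku and Akr1b8 and lie below control for Fbxo32, Lyve1 and Pag1.

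The calls differed in how much they rested on single libraries. Cbr3, Tsku, Lyve1 and Fbxo32 stayed past the threshold whichever of the 12 libraries was left out, with highest adjusted p of 0.0402, 0.0291, 0.0347 and 0.0347 (limma). The other 13 all lost their call without control 0, as they did without control 3, without curcumin 0 and without curcumin 1. Their highest adjusted p lay between 0.116 and 0.168, and none of the 13 reversed in an alternative that tested it. Where libraries were only left out, genes whose groups do not overlap could not reverse. In the 8 libraries alone Mgst2, Snhg7, Slc35b2, Ankrd35 and Mylip lost their call, at adjusted p of 0.0599, 0.0581, 0.0662, 0.0581 and 0.0581, and voom lost Snhg7 (adjusted p = 0.0754) and Mir6362 (0.192). No gene passed within the GC-rich libraries (1 control, 2 curcumin) or within the AT-rich libraries (3 control, 2 curcumin), where 1127 and 993 genes had an unadjusted p below 0.05. The lone GC-rich control library is assumed there to vary like the other groups. The lowest adjusted p of the 17 was 0.136 in the GC-rich and 0.258 in the AT-rich libraries (limma). With the GC group as a covariate 40 genes passed, the 17 among them.

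Most members of the detoxification lists were higher in the mean, and few passed the threshold. Of 28 tested esterases and carbonyl reductases (31 listed), 3 rose (Cbr3, Akr1b8 and Akr1b7), against 0.0941% of all genes. Higher in the mean were 25 of them, and 9 lay above control in every library, against 52.4% and 3.76% of all genes. Their median difference was 0.37 and that of all genes 0.01. Cbr1, a paralog of Cbr3, was at 258, 330, 262 and 284 FPKM in control and 675, 593, 425 and 372 in curcumin (log2 difference 0.83, SE 0.19, adjusted p = 0.103, limma). Its groups did not overlap, and curcumin minus AOM/DSS was 1.10 (adjusted p = 0.015). Among carboxylesterases, which cleave ester and amide bonds of drugs and lipids, Ces2a went from 107 ± 19.5 to 247 ± 80.6 FPKM (1.16, adjusted p = 0.0755), Ces2c from 195 ± 49.2 to 365 ± 91.1 (0.90, adjusted p = 0.134) and Ces1f from 12.3 ± 5.66 to 41.4 ± 9.41 (1.73, adjusted p = 0.115; SD, n = 4 each, limma). Reads of these paralogs, too, can be split between copies.

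Of 29 tested genes of Nrf2, glutathione and thioredoxin (30 listed) 1 rose, Nqo1, against 0.0941% of all genes. Higher in the mean were 25 of them, and 7 lay above every control library, against 52.4% and 3.76% of all genes. The median was 0.30, with 0.61 in the GC-rich and 0.09 in the AT-rich libraries alone. Gclc and Gclm, the catalytic and modifier subunits of the enzyme that limits glutathione synthesis, showed small differences with no overlap. Gclm was at 32.7, 32.98, 34.3 and 32.1 FPKM in control and 41.5, 46.8, 47.1 and 40.5 in curcumin (0.40, SE 0.12, adjusted p = 0.19, limma), and Gclc went from 28.1 ± 1.37 to 44.5 ± 14.99 FPKM (SD, n = 4 each; 0.60, adjusted p = 0.211). Me1, the malic enzyme that yields NADPH, was at 0.163 to 1.32 FPKM in control and 2.46 to 5.79 in curcumin (1.54, adjusted p = 0.0959), with AOM/DSS at 3.04 ± 2.35. Hmox1, the heme oxygenase that Nrf2 also targets, overlapped between groups, at 2.01 ± 0.696 in control and 3.26 ± 0.509 in curcumin (0.52, adjusted p = 0.352).

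Among 33 tested conjugating enzymes (35 listed) Mgst2 alone rose, and 28 were higher in the mean, against 0.0941% and 52.4% of all genes. Above every control library were 5, against 3.76% of all genes (Mgst2, Gsta3, Gstm3, Gstt1 and Ugt1a7c). The list median was 0.29. The glutathione transferase Gstm3 was at 19.5 to 31.1 FPKM in control and 36.4 to 44.0 in curcumin (0.75, adjusted p = 0.121, limma), and Gsta3 at 3.06 to 9.22 and 10.3 to 15.9 (0.99, adjusted p = 0.199). None of 21 cytochrome P450 and Ah receptor genes (30 listed) passed, and 16 were higher in the mean, against 52.4% of all genes. Cyp4f16, Cyp4f40 and Cyp2d26 had no overlap, against 3.76% of all genes (list median 0.30, or 0.18 without control 2). Cyp4f16 went from 49.8 ± 6.55 to 90.3 ± 24.9 FPKM (SD, n = 4 each; 0.82, adjusted p = 0.0755). Cyp2c55, an enzyme of the colon, varied from 50.9 to 328 FPKM within control and from 291 to 571 in curcumin (2.06, SE 0.83, adjusted p = 0.344), and Cyp1a1, the main Ah receptor target, was below the filter at no more than 0.0349 FPKM in each of the 8 libraries.

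Of 15 tested retinoid genes (25 listed) Aldh1a7 rose, against 0.0941% of all genes. Aldh1a7, Rbp2, Aldh1a1 and Retsat lay above every control library, against 3.76% of all genes. The list's median was 0.27, but -0.02 in the GC-rich libraries alone, and 0.17, 0.14, 0.14 and 0.15 without curcumin 2, control 0, control 2 and control 3. Rbp2, the retinol carrier of enterocytes, was at 34.3, 43.4, 37.7 and 62.8 FPKM in control, 23.8 to 36.1 in AOM/DSS, and 109, 91.2, 96.3 and 69.1 in curcumin (1.04, SE 0.19, adjusted p = 0.0549, limma; curcumin minus AOM/DSS 1.58, adjusted p = 0.00306). Of 28 tested genes of fatty acid oxidation and PPAR targets (30 listed) none passed and 23 were higher in the mean, against 52.4% of all genes. Creb3l3, Acaa1b, Acot2 and Acaa2 had no overlap, against 3.76% of all genes (list median 0.26). Angptl4 had none either, but passed the filter through curcumin alone. Creb3l3, a membrane-bound transcription factor of lipid metabolism, had the largest difference of them, at 1.66, 2.501, 1.23 and 3.35 FPKM in control and 23.9, 6.10, 13.3 and 15.4 in curcumin (2.21, SE 0.41, adjusted p = 0.0549). Curcumin 1 was the lowest of its group and still above control 3, and AOM/DSS, at 0.759 to 5.46 FPKM, overlapped control.

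**Figure D3:**
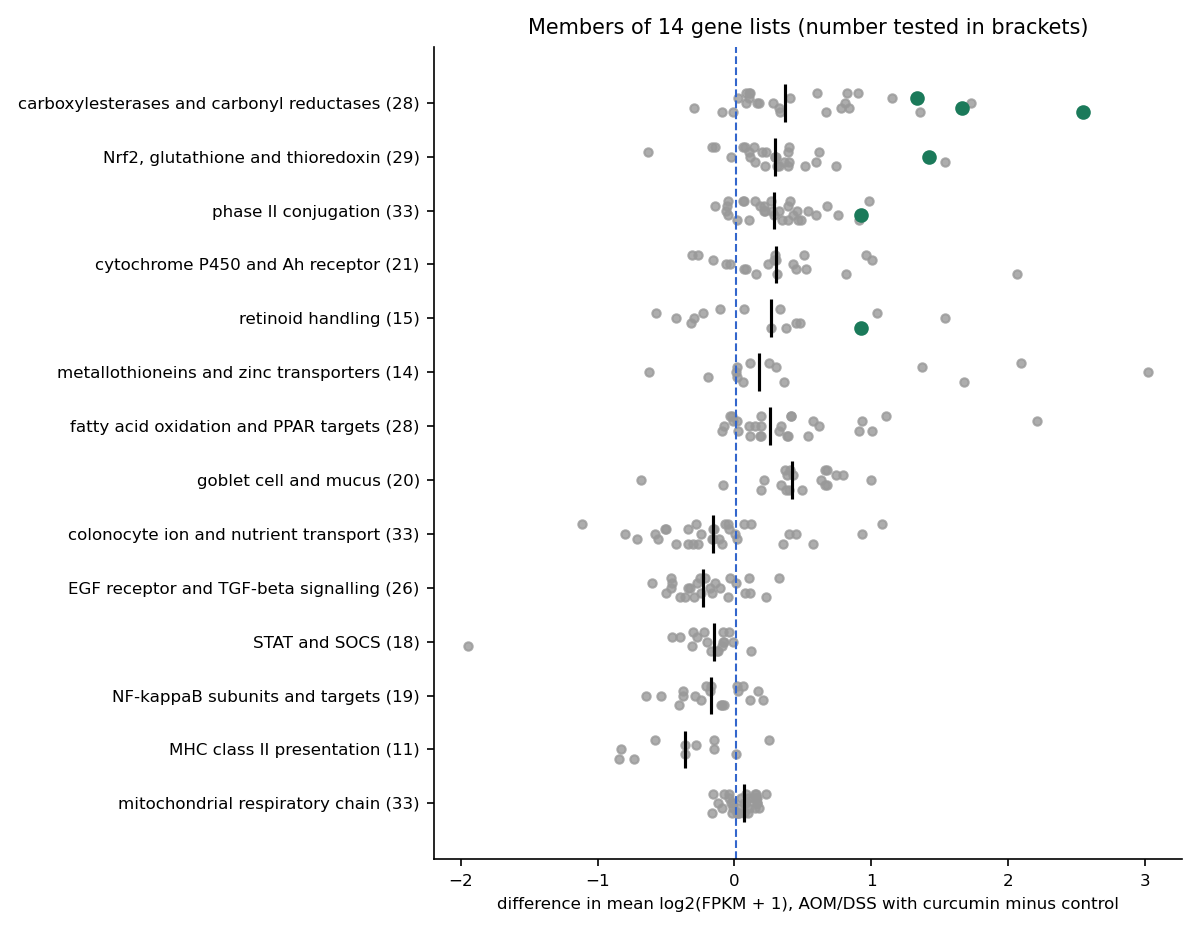
Each point is a tested member of 1 of 14 gene lists, placed at its difference in mean log2(FPKM + 1), curcumin minus control; green points passed the threshold, black bars are list medians and the dashed line is the median of all genes, 0.01. Most members of the detoxification lists lie to the right of the line, and most of the signalling lists to its left.

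RefSeq promoter windows (GRCm38.p6), the 250 bases before each annotated start, were searched for the antioxidant response core, the motif that Nrf2 binds. This core, TGACNNNGC on either strand, was in 1 of 17 windows of the 13 called genes that matched a RefSeq entry, that of Slc35b2, and in 10.2% of all 32851 windows. A window with no match says only that these letters are not in it.

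Mt2, a metallothionein, had the largest log2 difference of the 11691 genes and did not pass the test. Metallothioneins are small cysteine-rich proteins that bind zinc and copper. Mt2 was at 94.2, 16.3, 75.7 and 51.0 FPKM in control, 22.2, 140, 39.8 and 73.1 in AOM/DSS, and 500, 637, 286 and 312 in curcumin. Mt1 was at 276, 65.0, 157 and 158 FPKM in control, 114, 260, 97.5 and 150 in AOM/DSS, and 903, 1104, 383 and 396 in curcumin. For both genes every curcumin library was above all 8 others, and the GC-rich curcumin 0 and 1 were above curcumin 2 and 3. Within the GC-rich libraries the Mt2 difference was 2.57 and within the AT-rich libraries 2.87, on the log2 scale. The mean of Mt2 was 7.31-fold and that of Mt1 4.25-fold the control mean (log2 differences 3.02, SE 0.57, adjusted p = 0.0562, and 2.09, SE 0.46, adjusted p = 0.0942, limma). Against AOM/DSS the same libraries gave 2.88 (adjusted p = 0.0285) and 2.103 (adjusted p = 0.046). Mt2 shares 73.5% of its exon bases with Gm45774 on the opposite strand, and metallothioneins are near-identical in part, so their split is uncertain.

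The metal response core, TGCACNC or TGCGCNC on either strand, is the motif through which the zinc sensor Mtf1 acts on these genes. The windows upstream of Mt2 (chr8:94172368-94172617, plus strand) and Mt1 (chr8:94178839-94179088, plus strand), neighbours on the chromosome, are shown because this motif is the one best known for these genes. They come from RefSeq on GRCm38.p6, run 5′ to 3′, and carry their matches in capitals:
Mt2: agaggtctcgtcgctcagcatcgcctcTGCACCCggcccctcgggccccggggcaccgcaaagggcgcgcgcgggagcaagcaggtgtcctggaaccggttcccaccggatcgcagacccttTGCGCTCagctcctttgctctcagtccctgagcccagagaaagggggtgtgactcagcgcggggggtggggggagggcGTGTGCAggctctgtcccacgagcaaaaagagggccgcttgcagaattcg
Mt1: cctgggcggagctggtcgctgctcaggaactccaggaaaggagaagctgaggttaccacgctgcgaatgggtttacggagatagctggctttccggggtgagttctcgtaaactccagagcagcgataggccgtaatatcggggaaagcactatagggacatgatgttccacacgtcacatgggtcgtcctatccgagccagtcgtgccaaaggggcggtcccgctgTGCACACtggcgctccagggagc
Mt2 held 3 matches and Mt1 1, while 21.4% of all windows held at least 1 match and 1.3% at least 3. A match is a run of letters and not a binding site. Cores past the annotated start or further upstream were not counted, so these counts do not describe a whole promoter.

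Of 14 tested metallothioneins and zinc transporters (16 listed) 12 were higher in the mean, against 52.4% of all genes. Mt1, Mt2 and Mt3 were without overlap, against 3.76% of all genes. The list median was 0.18, or 0.12 without curcumin 3. Mt4 passed the filter on low values through curcumin alone, so its lack of overlap follows from the filter. Mt3 was at 0.299 to 2.93 FPKM in control and 3.97 to 6.05 in curcumin (1.68, adjusted p = 0.337, limma), and reached 54.02 in AOM/DSS 3. Slc39a4, the zinc importer of the gut lumen, was at 120 to 189 FPKM in control and at 189, 92.1, 75.9 and 75.3 in curcumin, curcumin 0 alone lying in the control range (-0.62, adjusted p = 0.339).

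Most genes of the secretory cell lists were higher in the mean, and none passed. Of 20 tested goblet cell and mucus genes (22 listed) 18 were higher, 7 of them without overlap against 3.76% of all genes (median 0.42), and 0 passed. Muc2, the gel-forming mucin of the colon, was at 186, 238, 225 and 221 FPKM in control and 458, 310, 495 and 501 in curcumin (log2 difference 1.00, SE 0.23, adjusted p = 0.11, limma), with AOM/DSS at 424 ± 154 (SD, n = 4). Zg16, a lectin of mucus, was at 1276 to 1766 FPKM in control, 1233 to 2039 in AOM/DSS and 2264 to 3305 in curcumin (0.68, adjusted p = 0.181). Spink4, a goblet cell peptide, was at 397 to 742 FPKM in control and 842 to 901 in curcumin (0.68, adjusted p = 0.23), below the 1047 to 1669 of AOM/DSS. Of 13 tested enteroendocrine genes (20 listed) 12 were higher (median 0.58, but -0.05 in the GC-rich libraries alone and 0.32 without control 3). The hormones Pyy, from 63.2 ± 37.6 to 148 ± 66.4 FPKM, and Insl5, from 48.8 ± 33.4 to 109 ± 31.4 (SD, n = 4 each), had adjusted p of 0.26 and 0.241 (limma).

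Genes that differed between AOM/DSS and control lay at several positions in curcumin. The 3 contrasts share libraries, so each is given with its own value. S100g, the calcium carrier calbindin-D9k, was at 196, 150, 100 and 159 FPKM in control, 17.4, 15.8, 33.2 and 39.2 in AOM/DSS, and 111, 118, 191 and 72.2 in curcumin. Control and curcumin overlapped (-0.34, SE 0.33, adjusted p = 0.708, limma), and both lay above AOM/DSS (curcumin minus AOM/DSS 2.19, adjusted p = 0.00814). Slc26a3, the chloride and bicarbonate exchanger of the surface cells, was at 535 to 779 FPKM in control, 133 to 299 in AOM/DSS and 507 to 646 in curcumin. Its curcumin minus control difference was -0.09 (SE 0.22, adjusted p = 0.902), and 0.02 without control 3. Dbp, a clock output factor, was at 41.3 to 104 FPKM in control, 2.03 to 26.6 in AOM/DSS and 42.9 to 73.7 in curcumin (-0.30, SE 0.51, adjusted p = 0.853; curcumin minus AOM/DSS 2.48, adjusted p = 0.035). Dbp shares 29.3% of its exon bases with Sphk2 on the opposite strand. A p above the threshold does not show that curcumin and control were alike in these genes.

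The GPI-anchored glycoprotein Cd177, otherwise a neutrophil marker, held an intermediate level. It was at 14.3, 15.8, 19.2 and 10.2 FPKM in control, 203, 156, 117 and 117 in AOM/DSS, and 38.2, 23.8, 33.9 and 38.4 in curcumin. The 3 groups did not overlap, with curcumin minus control at 1.13 (SE 0.22, adjusted p = 0.0681, limma), AOM/DSS minus control at 3.23 (adjusted p = 2.25e-05) and curcumin minus AOM/DSS at -2.095 (adjusted p = 0.000965). Ceacam10 had the same order, at 12.2 to 20.4, 63.9 to 99.0 and 23.0 to 32.9 FPKM (curcumin minus control 0.81, adjusted p = 0.102). Plet1, which encodes a GPI-anchored membrane protein, was at 1.16 to 7.36 FPKM in control and 6.27 to 19.7 in curcumin (1.75, SE 0.38, adjusted p = 0.0942), control 1 overlapping curcumin. Lactoperoxidase, Lpo, was at 0.687 to 3.03 FPKM in control, 10.04 to 12.8 in AOM/DSS and 3.50 to 7.82 in curcumin (1.32, SE 0.29, adjusted p = 0.0942).

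Duox2, the epithelial oxidase that makes hydrogen peroxide at the lumen, lay below control in curcumin and above it in AOM/DSS. It was at 17.4, 17.5, 20.3 and 19.8 FPKM in control, 38.7, 71.5, 34.4 and 37.5 in AOM/DSS, and 10.8, 6.45, 5.98 and 7.90 in curcumin. None of the 3 groups overlapped, and curcumin minus control was -1.20 (SE 0.22, adjusted p = 0.053, limma) beside curcumin minus AOM/DSS of -2.37 (adjusted p = 0.000719). Aqp8, the water channel of the surface colonocyte, was above control, at 362 to 611 FPKM there, 167 to 332 in AOM/DSS and 729 to 1312 in curcumin (0.93, SE 0.24, adjusted p = 0.141; curcumin minus AOM/DSS 1.92, adjusted p = 0.00357). Of 33 tested genes of colonocyte transport (34 listed) 23 were lower in the mean than in control and 0 passed (median -0.15, or -0.09 without curcumin 1 and -0.10 without control 3).

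**Figure D4:**
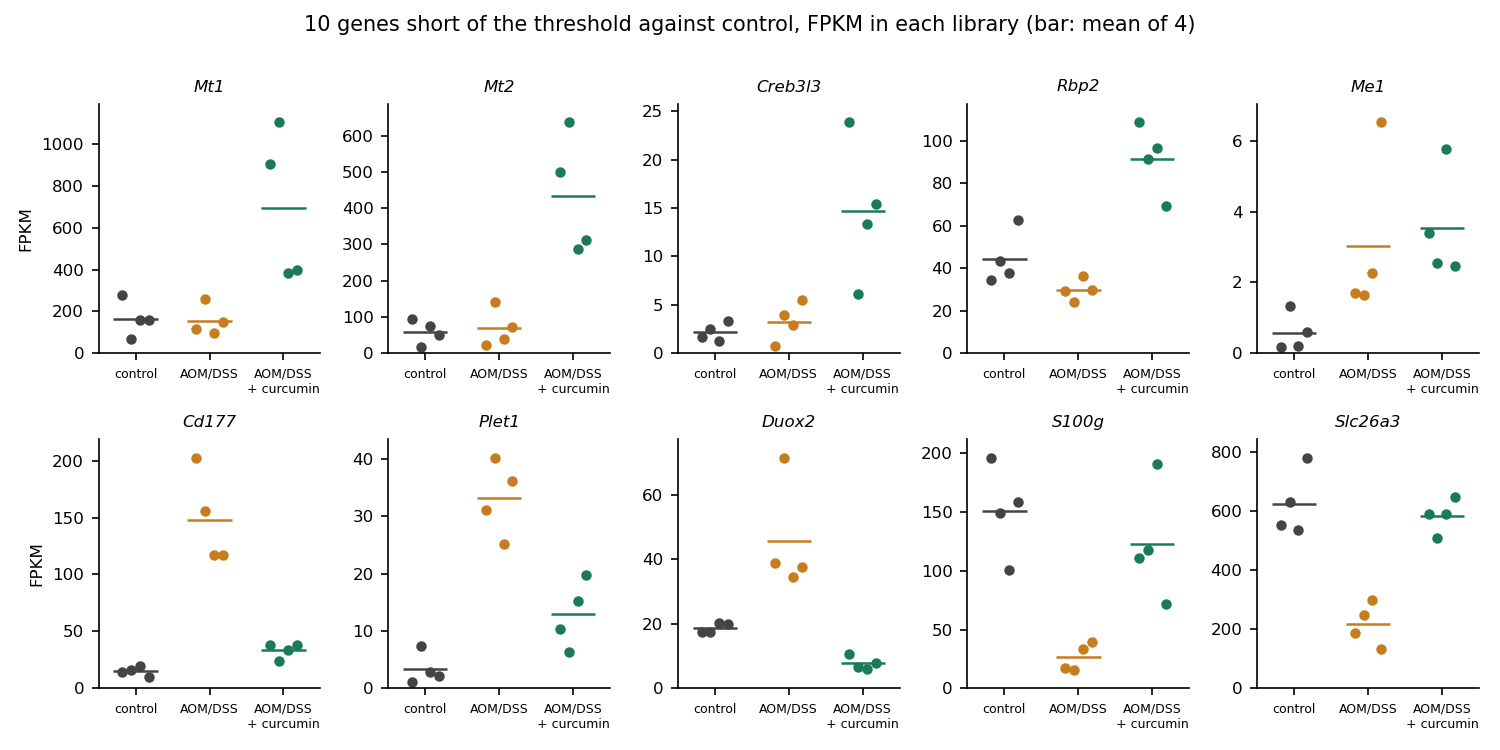
FPKM (vertical axes, each from 0) of 10 genes that did not pass against control, in the 12 libraries by group, with a bar at each group mean. Curcumin libraries stand above both other groups for Mt1, Mt2, Creb3l3 and Rbp2, below both for Duox2, and between them for Cd177. For S100g and Slc26a3 the curcumin libraries overlap control, with the lowest of them below every control library.

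Most members of the growth factor and cytokine signalling lists were lower in the mean, and none passed. Of 26 tested genes of EGF receptor and TGF-beta signalling (32 listed) 20 were lower in the mean, and Smad4, Smad3, Smad2 and Tgfbr2, the receptor and the signal carriers of the TGF-beta pathway, lay below every control library, against 4.59% of all genes (median -0.23, or -0.15 without curcumin 1). Smad4 went from 52.1 ± 5.75 to 36.7 ± 5.83 FPKM and Smad3 from 15.5 ± 2.32 to 10.9 ± 0.641 (SD, n = 4 each), with adjusted p of 0.151 and 0.134 (limma). Of 18 tested STAT and SOCS genes (22 listed) 17 were lower, Jak1, Il6st and Socs2 without overlap, against 4.59% of all genes. The median was -0.15, with -0.23 without control 2 and -0.10 without control 3. Stat3, a transcription factor of cytokine signalling, was at 32.7 to 49.1 FPKM in control and 28.9 to 32.8 in curcumin (-0.46, adjusted p = 0.175), and Socs3, its feedback inhibitor, ranged from 1.59 to 32.4 within control and from 0.82 to 2.90 in curcumin (-1.94, SE 0.66, adjusted p = 0.25). Of 19 tested NF-kappaB genes (22 listed) 13 were lower (median -0.17), including the inhibitor Tnfaip3, at 25.5 to 33.5 FPKM in control and 16.1 to 21.7 in curcumin (-0.65, adjusted p = 0.113). The subunit Nfkb1 was at 22.0 ± 1.52 and 17.8 ± 1.28 FPKM (SD, n = 4 each; -0.29, adjusted p = 0.252).

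Of 27 listed inflammatory cytokines and chemokines 8 were tested, and none passed. Tnf, Il1b, Ptgs2 and Il6 were below the filter. Tnf was at 0.238 to 0.633 FPKM in control and 0.075 to 0.401 in curcumin, Il1b at no more than 0.594 and Ptgs2 at no more than 0.0449 in any of the 8 libraries, and Il6 was listed at 0 in all of them. The vitamin D receptor Vdr, a nuclear receptor of the colon, was at 205 ± 13.7 FPKM in control, 115 ± 14.2 in AOM/DSS and 152 ± 9.41 in curcumin (SD, n = 4 each), with no overlap (-0.43, SE 0.11, adjusted p = 0.139, limma). Ppargc1a, a coactivator of mitochondrial genes, was at 13.0 to 20.02 FPKM in control and 8.37 to 11.8 in curcumin (-0.73, adjusted p = 0.0755). None of 33 respiratory chain subunits passed or lay apart without overlap, against 0.145% and 8.35% of all genes. The median of these subunits was 0.07, with -0.11 in the AT-rich libraries alone.

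No cell cycle gene passed. Of 30 cell cycle genes 28 were higher in the mean (median 0.20, but -0.26 in the GC-rich libraries alone, and from 0.05 without control 1 to 0.46 without control 2). Mki67, the common proliferation marker, was at 3.34 to 11.8 FPKM in control and 5.63 to 13.3 in curcumin (0.31, SE 0.36, adjusted p = 0.767, limma; -0.67 in the GC-rich libraries alone). The stem cell receptor Lgr5 was at 2.15 ± 0.601 and 2.14 ± 0.549 FPKM (SD, n = 4 each).

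Barrier, lipid and timing genes completed the lists, and none of their members passed. Of 24 tested tight and gap junction genes (25 listed) 14 were lower in the mean, 3 of them below and 2 others above every control library, against 4.59% and 3.76% of all genes (median -0.11, or -0.03 without control 3). Tjp1, the scaffold ZO-1 of tight junctions, was at 38.9, 44.8, 37.1 and 54.5 FPKM in control and 25.4, 21.6, 28.3 and 32.2 in curcumin (log2 difference -0.68, adjusted p = 0.11, limma), and AOM/DSS, at 23.6 to 33.7, overlapped curcumin. Cldn4, a claudin, was at 10.9, 10.7, 8.79 and 29.0 FPKM in control and 67.7, 33.6, 38.5 and 33.5 in curcumin (1.58, adjusted p = 0.191), where control 3 and curcumin 0 stood apart from the rest of their groups. Of 28 tested genes of cholesterol and fatty acid synthesis (29 listed) 21 were higher and 4 without overlap, against 3.76% of all genes. The median was 0.28, with 0.02 in the GC-rich libraries alone, 0.16 without curcumin 0 and 0.15 without control 1. One of the 4 was Mvd, an enzyme of the mevalonate pathway, at 18.0 to 30.3 FPKM in control and 31.8 to 63.8 in curcumin (0.77, adjusted p = 0.233). Of 15 tested clock genes (19 listed) 12 were lower (median -0.21, with -0.33 without curcumin 1, -0.35 without control 1 and -0.07 without control 3). Of 11 tested genes of MHC class II presentation (14 listed) 9 were lower (median -0.36, or -0.22 without control 0 and -1.09 in the GC-rich libraries alone). Type I interferon genes were higher in 16 of 21 tested (24 listed; median 0.23, but -0.03 in the GC-rich libraries alone and 0.14 without control 2).

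Lyve1 aside, which is in none of the lists, no listed marker of a cell type other than epithelium passed, and the summed levels of several types were lower in curcumin. Red blood cell genes summed to 103 to 504 FPKM in control and 63.7 to 83.2 in curcumin, and 6 of 7 tested members (12 listed), all of them globin genes, lay below every control library (median -1.81, against 4.59% of all genes without overlap and lower). Hba-a1, an alpha globin, was at 17.6, 88.2, 14.6 and 51.0 FPKM in control and 9.94, 10.2, 9.26 and 6.68 in curcumin (-1.78, adjusted p = 0.313, limma), and reads of the near-identical globin copies count in pairs. Fibroblast and matrix genes summed to 48.4 to 70.1 FPKM in control and 30.6 to 43.8 in curcumin (6 of 7 tested lower, 26 listed), and smooth muscle genes to 33.4 to 41.6 and 23.6 to 31.9 (2 of 4 lower, 12 listed). B and plasma cell genes summed to 17.2 to 45.5 FPKM and 6.12 to 30.1 (9 of 9 lower, 14 listed), and T and NK cell genes to 15.8 to 22.9 and 10.6 to 18.0 (4 of 4 lower, 19 listed). Elane, Ngp and Fcer1a of the neutrophil and mast cell list were at 0 in all 8 libraries. Col1a1, Des and Cd3e, defining markers of fibroblasts, muscle and T cells, stayed below the filter. The part of these cells in the differences above was not tested.

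**Figure D5:**
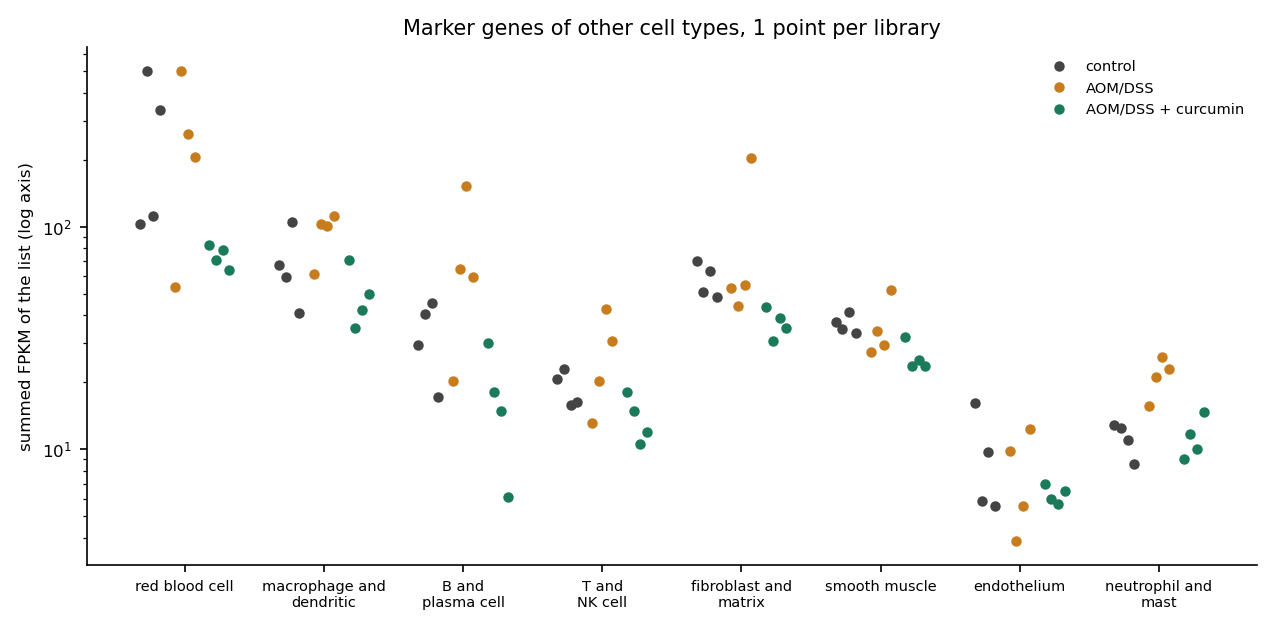
Summed FPKM (log axis) of the listed markers of 8 other cell types, with 1 point per library in each group. Red blood cell, fibroblast and smooth muscle sums of the 4 curcumin libraries lie below those of all 4 control libraries, while the other types overlap.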

How the data were processed

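RNA of colon epithelial cells was sequenced from 12 mouse samples, 4 in each group. Per the labels' protocols, a proximal segment and right-sided tumours were removed, and cells were scraped off and washed at low speed to lower the blood content. The authors deposited FPKM per gene. Per the submitters' processing notes, the build was mm9 and the tools were featureCounts 1.5.1, Picard, R 3.4.0, TopHat2 2.1.1, DESeq2 1.14.1 and Bowtie2 2.2.6, listed with no roles. Annotation, strand setting and filters are not given in the sources used here. Without strand, reads of a gene and its opposite-strand partner cannot be told apart. No mm9 genome was used, and exon overlap, GC content and promoters come from GRCm38.p6.

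All 12 libraries entered 1 limma 3.58.1 fit (R 4.3.3) of log2(FPKM + 1), with 9 residual degrees of freedom, for genes at 1 FPKM or more in at least 4 of the 8 libraries compared. A fold change on this scale understates that of low genes. P-values were Benjamini-Hochberg adjusted over all 11691 genes, at a threshold of 0.05. FPKM steps gave whole reads (tolerance 0.001) for 100.0% of genes above 0, and limma voom on these reads called 23 genes. Replicates differed by more than sampling noise. Tested on simulated data (11758 genes), this contrast called 14 of 11558 null genes, 96 of 100 with a 4-fold and 63 of 100 with a 2-fold change. Counts were drawn there for each gene independently, without the differences in base composition that the real libraries share across genes. The number of changed genes was also set in advance, so these rates need not hold for the real data. Summaries used Python 3.11.15, pandas 2.3.3, numpy 2.4.6 and matplotlib 3.10.9.

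One gene that the rule below would name is not reported here. The comparison and the 50 gene lists were chosen with earlier results of these data known. Genes were named by rule: the largest changes among called genes, every called member of a list or otherwise its 2 largest differences, and a short set of fixed genes such as Cd177, S100g, Muc2 and Mt1. Others were chosen after their values were seen: Duox2, Me1, Ces1f, Ces2a, Ces2c, Cbr1, Gclc, Gclm, Gsta3, Gstm3, Gstt1, Ugt1a7c, Cyp4f16, Cyp4f40, Cyp2d26, Hba-a1, Aldh1a1, Retsat, Acaa1b, Acaa2, Acot2, Smad2, Smad3, Tgfbr2, Il6st, Jak1, Socs2, Tjp1, Zg16, Spink4, Mt3, Mt4, Slc39a4 and Aqp8. The alternatives were other pseudocounts, filters, scalings, voom, the 8 libraries alone, a replicate block, the GC groups and leaving out each library.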

Additional observations from a re-analysis of the deposited data

Results flagged for a closer look

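In 18 of 318 groups of 4 libraries the highest or lowest library stood apart from the other 3 by more than Dixon's 95% limit for the gap divided by the range. Chance flags about 1 in 20 groups. Of the called genes this touched Fbxo32, where control 2 was low at 32.5 FPKM against 39.6 to 40.3 in the other control libraries.

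Curcumin 0 was the library most often apart. It was high for Pyy (247 FPKM against 108 to 120.5 in the other 3), Irf1 (67.7 against 44.6 to 47.9), H2-Eb1 (17.1 against 6.01 to 7.73), Cldn4 (67.7 against 33.5 to 38.5), Jchain (8.44 against 0.195 to 1.505), Slc39a4 (189.0 against 75.3 to 92.1) and Epcam (928 against 626 to 668). It was low for Ern1, at 4.86 FPKM against 5.71 to 5.88. Curcumin 1 was low for Ndufa4, at 216 FPKM against 251 to 258, and curcumin 2 was low for Mcpt1, at 0.422 against 1.79 to 1.97.

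Among control libraries, control 0 was low for Gadd45a (19.8 FPKM against 28.9 to 30.7) and alone above 0 for Mt4, at 0.248. Control 1 was high for Tpm2 (3.26 against 1.96 to 2.15) and for Mt3 (2.93 against 0.299 to 0.667). Control 2 was high for Ccl25 (3.94 against 1.45 to 1.83) and low for Cyp2d26 (17.1 against 22.9 to 23.9), and control 3 was high for Cldn4 (29.0 against 8.79 to 10.9).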

How the results depend on the processing

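The count of 17 genes moved to 40 with the GC group as a covariate, 28 after quantile normalization, 7 with no filter, 0 in the GC-rich and 0 in the AT-rich libraries alone, and to between 4 and 35 when 1 library was left out. The fits within GC groups hold fewer samples; the cause of the other shifts was not tested. With the replicate number as a block 5 genes passed, and 12 of the 17 calls were lost. Whether the numbers pair the samples is not given in the sources used here. Same-numbered control and curcumin libraries correlated at 0.096, -0.346, 0.286 and -0.014 in their deviations from the group means, and differently numbered ones at -0.386 to 0.521. The libraries also differ in base composition, so these correlations cannot decide whether the samples were paired. The 17 called genes kept their direction in every alternative in which they were tested. Their curcumin and control libraries did not overlap, so leaving out libraries or fitting a part of them could not have reversed any. Over the named genes 3375 values kept side and direction, 169 lost and 42 gained the threshold, and 24 reversed. In the GC-rich libraries alone the reversed log2 differences were -0.34 for Smoc2, -0.22 for Cdc20, -0.07 for Plk1, -0.001 for Trpv6, -0.23 for Pecam1, -0.74 for Kit, -0.67 for Mki67, 0.13 for Epcam and 0.41 for Krt8. In the AT-rich libraries alone they were -0.068 for Ltc4s, -0.024 for Atp5o, -0.11 for Mcpt1 and 0.20 for Lgr5, and Lgr5 gave 0.014 with the GC covariate. Leaving out 1 library, Kit lay between -0.107 and 0.222, Slc26a3 lay between -0.158 and 0.023, Lgr5 lay between -0.117 and 0.118, and Krt8 between -0.215 and 0.134. With 4 libraries a group and depths down to 5567988 reads, a missed threshold does not show that a gene was alike in both groups.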
